A study of Homo sapiens with 4 samples.

Results

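Triglyceride is made in the cell by adding fatty acids stepwise to a glycerol backbone and is stored in lipid droplets, and the 10 genes examined here encode enzymes and droplet proteins of that route. They are the glycerol-3-phosphate acyltransferase genes GPAT3, GPAT4 and GPAM, the phosphatidic acid phosphatase genes LPIN1 and LPIN2, the diacylglycerol acyltransferase genes DGAT1 and DGAT2, the droplet assembly factor gene LDAF1, and the perilipin genes PLIN2 and PLIN3. All probe sets that the array annotation assigns to exactly one of these genes were used. There were 18 of them, covering all 10 genes, among 41091 probe sets with a single gene and 19775 genes in all. The genes were chosen with the siRNA ratios of these arrays known, above all those of GPAT3 and LDAF1, so the siRNA ratios of the 10 genes are given as a description with no test.

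The RNA came from 2 human lines of non-small cell lung cancer. These were A549, an adenocarcinoma line, and H1299, a line from a lymph node metastasis. Both were grown in DMEM with 10% fetal bovine serum, and each was transfected by lipofection with a scramble control siRNA or with an siRNA against hMOF. hMOF is the histone H4 acetyltransferase encoded by KAT8. The 4 groups, A549 scramble, A549 hMOF siRNA, H1299 scramble and H1299 hMOF siRNA, had 1 array each, and nothing in the labels speaks of repeated cultures. A ratio within a line therefore carries no error of its own. The siRNA test took the lines as repeats, the test between lines took the siRNAs as repeats, and p values reflect the spread of these arrays alone, which may be technical. Whether the siRNA response differs between the lines could not be tested, because 4 arrays leave no residual degrees of freedom for that fit.

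The first acylation of glycerol-3-phosphate is carried out by GPAT3 and GPAT4 at the endoplasmic reticulum and by GPAM at the mitochondrial outer membrane. Lipins then remove the phosphate from phosphatidic acid to give diacylglycerol, a branch point between storage fat and phospholipids, and DGAT1 and DGAT2 add the last fatty acid. LDAF1 binds seipin at the places where droplets form, and perilipins cover the finished droplet and limit access of lipases. In lung epithelium, alveolar type II cells use the same early steps to supply surfactant phospholipid, and many carcinoma lines hold lipid droplets.

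Promoter windows were taken from RefSeq on GRCh38.p14, from 250 bases before to 50 bases after a gene's start, and 6 of the 10 genes matched, with 10 windows. The 250 bases before the start are printed for GPAT3, whose signal was far lower with hMOF siRNA in both lines, for GPAM, which acts at the same step and was not lower, and for LPIN2 and PLIN2, whose signals were lower by less. Capitals mark matches, on either strand, to the GC box GGGCGG, the CCAAT box CCAAT, the palindromic E-box CACGTG or the TATA box TATAAA. The windows lie at chr4:83535857-83536106 on the plus strand (GPAT3, the more upstream of 2 starts listed 1 base apart), and on the minus strand at chr10:112183766-112184015 (GPAM), chr18:3013145-3013394 (LPIN2, the window richer in CpG of its 2) and chr9:19127493-19127742 (PLIN2).
GPAT3: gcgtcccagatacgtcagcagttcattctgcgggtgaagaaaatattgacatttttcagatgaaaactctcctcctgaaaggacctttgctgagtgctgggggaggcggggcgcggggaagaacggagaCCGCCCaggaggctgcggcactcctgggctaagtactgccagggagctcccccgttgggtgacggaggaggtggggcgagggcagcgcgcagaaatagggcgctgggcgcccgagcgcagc
GPAM: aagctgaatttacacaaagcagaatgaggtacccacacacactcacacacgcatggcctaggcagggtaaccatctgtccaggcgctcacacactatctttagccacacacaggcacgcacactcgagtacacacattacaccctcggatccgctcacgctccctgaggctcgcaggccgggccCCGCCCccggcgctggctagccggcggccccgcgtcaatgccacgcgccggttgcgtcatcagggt
LPIN2: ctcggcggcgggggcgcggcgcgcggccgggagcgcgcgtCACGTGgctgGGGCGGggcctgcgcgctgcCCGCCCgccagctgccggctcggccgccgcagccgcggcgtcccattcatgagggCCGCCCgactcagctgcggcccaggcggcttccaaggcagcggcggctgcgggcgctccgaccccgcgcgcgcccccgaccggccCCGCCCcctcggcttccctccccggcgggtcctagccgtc
PLIN2: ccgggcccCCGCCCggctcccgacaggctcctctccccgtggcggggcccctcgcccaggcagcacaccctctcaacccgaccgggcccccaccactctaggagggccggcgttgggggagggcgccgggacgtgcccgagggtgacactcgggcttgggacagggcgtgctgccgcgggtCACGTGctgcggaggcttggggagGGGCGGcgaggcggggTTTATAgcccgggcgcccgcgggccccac

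The GPAT3 and GPAM stretches each held 1 GC box, the LPIN2 stretch held 4 and the PLIN2 stretch held 2. An E-box stood in the LPIN2 and PLIN2 stretches, 210 and 69 bases before the start. PLIN2 had a match to the TATA box letters 29 bases before the start, on the strand opposite to the printed one and so in reverse orientation. Over full windows of 300 bases, a GC box was in 8 of the 10 member windows and in 45.0% of all 35116 promoter windows, and an E-box was in 2 and in 7.26%. A CCAAT box was in 2 (34.6% of all) and a TATA box in 1 (11.5%). The sterol regulatory element TCACNCCAC (1.13% of all) and the direct repeat AGGTCANAGGTCA (0.0228%) were in 0 of the 10, which says only that these letters are not in these windows. CpG dinucleotides numbered 25 in both GPAT3 windows, 23 in GPAM, 36 in PLIN2 and 24 in PLIN3, against a median of 14 over all windows. They numbered 52 in the printed LPIN2 window and 8 in the other, and 29, 8 and 6 in the LPIN1 windows. A match is a description of the letters and not a shown binding site.

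Values are MAS5 signals in linear units, a probe set's level being comparable across arrays but not with that of another probe set. Log2 ratios were taken of signal plus 29.1, the 20th percentile of all signals, which shrinks ratios of dim probe sets. A probe set was kept for counts and tests when its mean signal over the 4 arrays was at least 78.2, the median of all such means. This held for 22830 probe sets with a single gene. Of the 18 member probe sets 16 were kept, at least 1 for each of the 10 genes, and GPAT4 236743_at and PLIN2 215895_x_at were not.

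The arrays were alike in overall signal, with medians from 73.3 to 75.4. KAT8 (221820_s_at) went from 402 under scramble to 106 under hMOF siRNA in A549 and from 241 to 61.8 in H1299, so 26.4% and 25.6% of its signal was left. On the dimmer KAT8 214885_at, whose mean signal was under the minimum, 83.8% was left in A549 and 64.5% in H1299. On 2 arrays the tag for treatment disagrees with the source name, and groups follow the source names, which the array titles match. All 5 epithelial markers were measured, and they were far brighter in A549 (CDH1 1535 and 1562) than in H1299 (CDH1 8.04 and 7.61). Of the 6 alveolar type II markers 5 had a probe set, and 4 of these passed the signal minimum, NKX2-1 being the exception. The summed signal of all 5, NKX2-1 included, went from 1107 to 1007 in A549 and from 1476 to 1189 in H1299. Of these markers, SFTPB stood between 702 and 798 and SFTPC between 109.9 and 120. LAMP3 went from 46.4 to 10.8 in A549 and from 445 to 232 in H1299. Summed adipocyte markers went from 363 to 439.6 in A549, mostly through CIDEC (185 to 249.5), and from 287 to 283 in H1299. The others, ADIPOQ, LEP, PLIN1 and FABP4, lay below the minimum in the mean. Summed fibroblast markers went from 803 to 1484 in A549, mostly through COL1A1 (541 to 1191), and from 270.5 to 280.2 in H1299. The ACTB control ratio of 3' to 5' signal, which tracks how whole the RNA was, went from 3.11 to 2.78 in A549 and from 2.89 to 2.64 in H1299. The GAPDH control ratio went from 1.18 to 1.20 in A549 and from 1.096 to 1.094 in H1299, so these controls did not move alike. The part of these differences in the results below was not tested.

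The 10 genes did not move as a block with hMOF siRNA. GPAT3 was lower by over 3-fold in both lines, LDAF1 was at 8.39% of its scramble signal in H1299 and nearly level in A549, LPIN1, LPIN2 and PLIN2 were lower by less in both lines, and GPAM and PLIN3 were not lower. Of the 16 kept probe sets, on the scale with the offset, 1 was at least 2-fold lower in A549 (GPAT3) and 2 in H1299 (GPAT3 and LDAF1), and 0 were 2-fold higher in either line. Without the offset 3 were so in H1299, with GPAT4 229577_at (log2 −1.14) added. Over all kept probe sets, 1.03% were at least 2-fold lower in A549 and 2.01% in H1299. Since the genes were chosen on this contrast, nothing is read from that comparison. Ratios were below 0 in both lines for 12 of the 16 (75.0%), against 36.9% of all kept probe sets, and above 0 in both for 3. The members' median log2 ratio was −0.24 in A549 and −0.34 in H1299, and that of all kept probe sets was −0.03 and −0.01. For the same reason nothing is read from these comparisons either, and the 16 probe sets stand for only 10 genes. In bulk RNA, fewer cells with a transcript and less transcript per cell cannot be told apart.

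**Figure D1:**
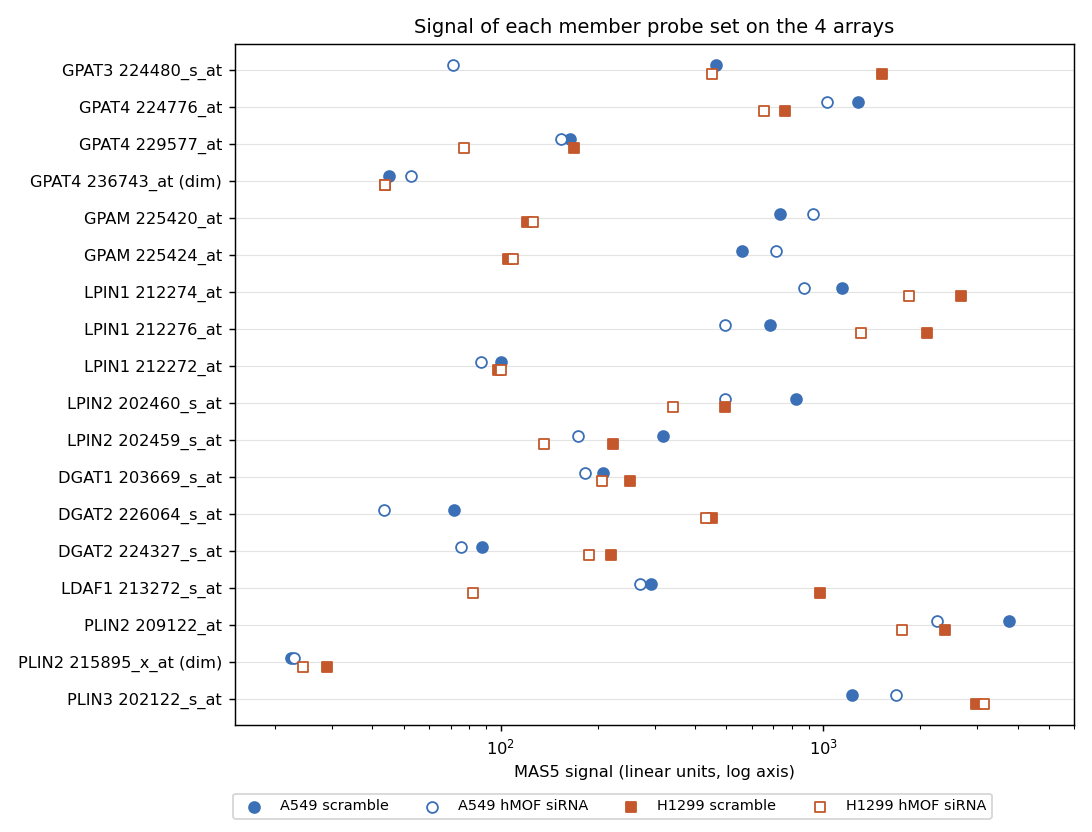
MAS5 signal (linear units on a log axis) of the 18 member probe sets on each of the 4 arrays, filled symbols for scramble and open symbols for hMOF siRNA, circles for A549 and squares for H1299; "dim" marks the 2 probe sets below the signal minimum. GPAT3 moves left with hMOF siRNA in both lines (467 to 71.3 and 1524 to 450.3), and LDAF1 does so in H1299 (978 to 82.1).

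At the first step, GPAT3 (224480_s_at, its one probe set) went from 467 under scramble to 71.3 under hMOF siRNA in A549, and from 1524 to 450.3 in H1299. Both hMOF siRNA arrays were below the scramble array of their own line, although H1299 with hMOF siRNA was about as bright as A549 with scramble. A549 kept 15.3% of the signal and H1299 kept 29.5%. The log2 ratios were −2.30 and −1.70 (mean −2.0 ± 0.43, SD, n = 2 lines). In A549 this was the lowest ratio but 1 of the 22830 kept probe sets, and in H1299 it ranked 69 from the lowest. Without the offset the A549 ratio was −2.71.

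GPAT4, the close relative of GPAT3 that also feeds droplet growth, differed between its probe sets. The brightest, 224776_at, stood at 1276 and 1024 in A549 and at 763 and 654 in H1299, a log2 ratio of −0.31 and −0.21. The dimmer 229577_at stood at 164 and 154 in A549 and at 169 and 76.9 in H1299, so only the H1299 hMOF siRNA array was low (log2 −0.07 and −0.90; 45.4% of the signal left in H1299). The probe set below the minimum, 236743_at, stayed between 43.7 and 52.7 on all arrays. The GPAT4 value in H1299 thus depends on the probe set read.

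GPAM, the mitochondrial enzyme of the same step, had 2 probe sets that gave like values. Its 225420_at signal went from 734 to 928 in A549 and from 121 to 126 in H1299, and 225424_at was 561 and 714, then 105 and 109. The log2 ratios were 0.33 and 0.06 for 225420_at and 0.33 and 0.04 for 225424_at. Of the 3 genes of the first acylation, GPAM alone had ratios above 0 in both lines on all its kept probe sets.

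The lipin genes, which act next, were lower with hMOF siRNA in both lines on their brighter probe sets. LPIN1 212274_at went from 1141 to 874 in A549 and from 2669 to 1843 in H1299 (log2 −0.37 and −0.53), and 212276_at from 685 to 495 and from 2099 to 1310.4 (−0.45 and −0.67). The dim LPIN1 probe set 212272_at stayed between 86.7 and 100.2 on all arrays (−0.16 and 0.02). LPIN2 202460_s_at went from 825 to 494 in A549 and from 495 to 341 in H1299 (−0.71 and −0.50). Its other probe set, 202459_s_at, went from 319 to 174 and from 223 to 136 (−0.78 and −0.61). Both LPIN2 probe sets thus had the lower signal with hMOF siRNA in both lines, by less than 2-fold.

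The genes of the last acylation differed little. DGAT1 (203669_s_at), an enzyme of the endoplasmic reticulum, stood at 207 and 182 in A549 and at 252 and 207 in H1299 (log2 −0.16 and −0.25). DGAT2, which also acts at the droplet surface, stood at 87.7 and 75.3 in A549 and at 220.4 and 187 in H1299 on 224327_s_at (−0.16 and −0.21). On 226064_s_at it stood at 71.9 and 43.6, then at 453 and 434 (−0.47 and −0.06). The A549 signals of both DGAT2 probe sets were close to or below the signal minimum, and the H1299 ratio of 226064_s_at changed sign under quantile normalization, alone among the 16 kept probe sets under the 2 other scalings tried.

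LDAF1 (213272_s_at, its one probe set) had a signal of 292 and 269.9 in A549, and of 978 and 82.1 in H1299. The H1299 scramble array was the brightest of the 4 and the H1299 hMOF siRNA array the dimmest, with both A549 arrays between them. A549 kept 92.5% of the signal and H1299 kept 8.39%, and the log2 ratios were −0.10 and −3.18 (mean −1.64 ± 2.18, SD, n = 2 lines). In H1299 this ranked 4 from the lowest of the kept probe sets. The difference of the ratios, H1299 minus A549, was −3.08 on the log2 scale, the third lowest of all kept probe sets, and the SD between lines exceeds the mean.

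The perilipin genes went apart, most clearly in A549. PLIN2 (209122_at), whose protein coats droplets in most cell types, stood at 3750.5 and 2244 in A549 and at 2377 and 1752 in H1299, so 59.8% and 73.7% of the signal was left (log2 −0.73 and −0.43). Its other probe set, 215895_x_at, was below the minimum on every array, between 22.4 and 29.0. PLIN3 (202122_s_at), an exchangeable perilipin also found in the cytosol, stood at 1227 and 1682 in A549 and at 2969 and 3154 in H1299 (log2 0.45 and 0.09). PLIN2 was thus brighter with scramble in both lines. PLIN3 was brighter with hMOF siRNA in A549 and nearly level in H1299, where 63.3% of kept probe sets had a lower ratio.

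**Figure D2:**
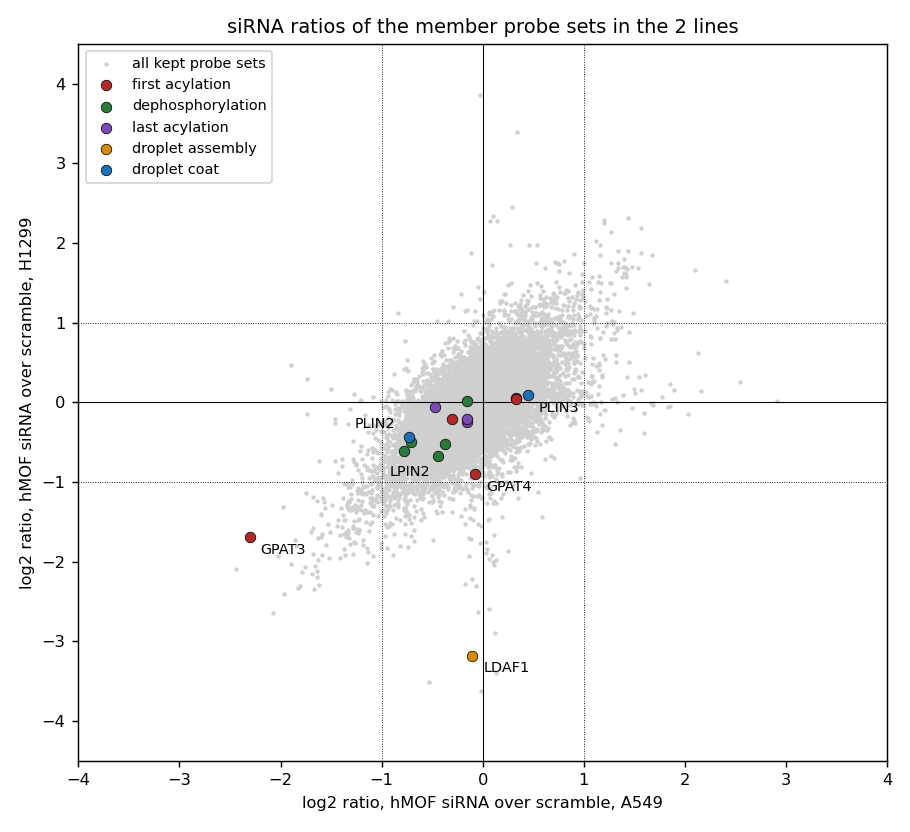
Log2 ratio of hMOF siRNA over scramble in A549 (horizontal) and H1299 (vertical) for the 22830 kept probe sets (grey) and the 16 kept member probe sets (coloured by step), with dotted lines at 2-fold. GPAT3 lies at −2.30 and −1.70, LDAF1 at −0.10 and −3.18, and the other members lie within 2-fold in both lines on this scale, which includes the offset.

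The comparison of the lines asked how this gene set differed between H1299 and A549 over both siRNAs. The genes were picked on siRNA ratios, although earlier results between the lines were also known. Genes called by limma between the lines went both ways, and DGAT1 and LDAF1 were not called. GPAT3, LPIN1 (2 of 3 probe sets), DGAT2 and PLIN3 were higher in H1299, and GPAM, GPAT4 (1 of 2 kept probe sets), LPIN2 and PLIN2 were higher in A549. By limma, 6 of the 16 kept probe sets were higher in H1299 and 6 in A549, 37.5% each way. Of all kept probe sets 26.0% were higher in H1299 and 25.9% in A549, so a call between the lines is common on these arrays. The member share includes DGAT2 226064_s_at, which was kept through its H1299 signals. LPIN1, LPIN2, DGAT2 and GPAM each enter it with more than 1 probe set, so nothing is read from the share.

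**Figure D3:**
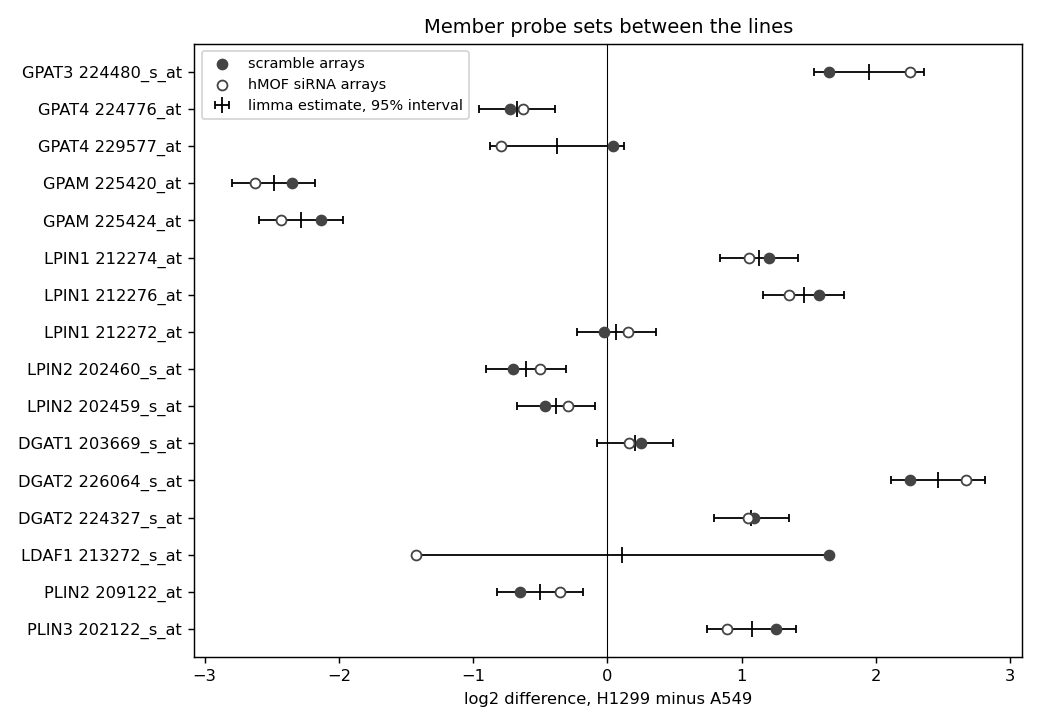
Log2 difference of H1299 minus A549 for the 16 kept member probe sets, on the scramble arrays (filled) and the hMOF siRNA arrays (open), with the limma estimate and its 95% interval (bars). GPAM lies left of −2 and DGAT2 226064_s_at right of 2 with either siRNA, and LDAF1 lies on opposite sides of 0.

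Among the acyltransferases of the first step, GPAM was 6.09-fold brighter in A549 than in H1299 with scramble and 7.34-fold with hMOF siRNA on 225420_at. The limma difference, H1299 minus A549, was −2.49 on the log2 scale (SE 0.13; adjusted p = 3.3e-05), and −2.28 on 225424_at (adjusted p = 4.9e-05). GPAT3 went the other way, 3.27-fold brighter in H1299 with scramble and 6.31-fold with hMOF siRNA (log2 1.95, SE 0.17; limma adjusted p = 0.000255). GPAT4 224776_at was higher in A549 (log2 −0.67, SE 0.12; limma adjusted p = 0.00404). Its 229577_at did not pass the test (−0.38, 95% interval −0.87 to 0.12; limma adjusted p = 0.174).

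The lipins likewise lay on opposite sides. LPIN1 was higher in H1299 by log2 1.13 (SE 0.12) on 212274_at and 1.46 (SE 0.12) on 212276_at, with limma adjusted p of 0.000556 and 0.000232. Its dim 212272_at did not pass (0.07, 95% interval −0.23 to 0.36). LPIN2 was higher in A549, at −0.60 on 202460_s_at (limma adjusted p = 0.00762) and −0.38 on 202459_s_at (0.0382).

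DGAT2 was higher in H1299 on both probe sets, at log2 2.46 (SE 0.14; limma adjusted p = 5.4e-05) on 226064_s_at and 1.07 (SE 0.12; adjusted p = 0.000596) on 224327_s_at. Both A549 signals of 226064_s_at (71.9 and 43.6) lay below the signal minimum. That probe set was kept through its H1299 signals, so its p value lends the difference no separate support. DGAT1, the other enzyme of that step, did not pass (0.20, 95% interval −0.08 to 0.49; limma adjusted p = 0.193). PLIN3 was higher in H1299 (1.08, SE 0.14; limma adjusted p = 0.00116) and PLIN2 higher in A549 (−0.50, SE 0.13; limma adjusted p = 0.0194). LDAF1 was 3.35-fold brighter in H1299 with scramble and 3.29-fold brighter in A549 with hMOF siRNA. Its difference over both siRNAs was 0.11 with a 95% interval from −1.44 to 1.66 (limma adjusted p = 0.899). Without siRNA as a block, GPAT3 (limma adjusted p = 0.197), both LPIN2 probe sets (0.214 and 0.462) and PLIN2 (0.282) no longer passed. Under the other alternatives, their adjusted p ran from 0.000174 to 0.00119 for GPAT3, from 0.00703 to 0.0493 for LPIN2 and from 0.0110 to 0.0304 for PLIN2.

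The rest of the storage pathway was read from 8 lists with 80 genes that are not among the 10. Of these, 74 had a probe set of their own and 58 had one above the signal minimum, each gene being represented by its brightest. Over both lines limma called 4 of the 58 lower with hMOF siRNA (6.90%) and 1 higher (1.72%), and 53 did not pass. Over all 12825 genes so represented 5.09% were lower and 2.69% higher, so the lists stood near the background. Their median log2 ratio was −0.14 in A549 and −0.12 in H1299, against −0.02 and −0.01 for all genes.

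The largest of these falls was in CNEP1R1, the partner subunit of the phosphatase that dephosphorylates lipins. Its signal on 235812_at went from 1118 to 530.4 in A549 and from 859 to 302 in H1299, so both hMOF siRNA arrays were lower than either scramble array (mean change −1.23 on the log2 scale, SE 0.14; limma adjusted p = 0.0119). CTDNEP1, the catalytic subunit, stood at log2 0.19 and 0.36 and did not pass (limma adjusted p = 0.229). CNEP1R1 was the 1 called gene of the 10 measured in the list of other acylation and dephosphorylation steps, whose median ratio was −0.10 in A549 and −0.34 in H1299.

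Of the acyl-CoA synthetases, which activate fatty acids, 1 of 2 measured fell. ACSL1 went from 1065 to 679.7 in A549 and from 402 to 251 in H1299 (log2 mean of −0.62 with SE 0.11; limma adjusted p = 0.0329), while ACSL4 stood at 0.26 and 0.30 and did not pass. Among 11 droplet coat and assembly genes, RAB18, a small GTPase of the droplet surface, fell (1479.9 to 974 in A549, 729 to 490.4 in H1299; limma adjusted p = 0.0422). AUP1, a droplet-associated ubiquitin pathway protein, rose (823 to 1155 and 741 to 1213; limma adjusted p = 0.0464). Among 10 genes of the phospholipid branch, CHKA, a choline kinase, fell (384 to 201 and 224.5 to 141; limma adjusted p = 0.0310). When the fit held 1 probe set per gene, CNEP1R1 was the only one of these 5 still called, with limma adjusted p for the others from 0.0559 to 0.0707. With no offset RAB18 and AUP1 also missed (0.0515 and 0.0554), as did RAB18 after quantile normalization (0.0583) and AUP1 after median centring (0.0525). The adjusted p of CNEP1R1 ran from 0.00883 to 0.0321 over the alternatives with the line as a block, and without that block none of the 5 passed (0.9999 for each).

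In the lists of lipolysis, sterol esterification, fatty acid uptake and transcription factors limma called 0 of 25 genes, with 8 at an unadjusted p under 0.05. LIPE, the hormone-sensitive lipase, stood at 99.97 and 108 in A549 and at 377 and 78.6 in H1299 (log2 0.09 and −1.92; limma adjusted p = 0.255). The H1299 scramble array was the brightest of the 4, as for LDAF1. PPARG, the nuclear receptor of fat storage, stood at log2 0.26 and 0.78 and PPARA, its relative of fat oxidation, at −0.24 and −1.07, and neither passed (limma adjusted p = 0.107 and 0.114).

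**Figure D4:**
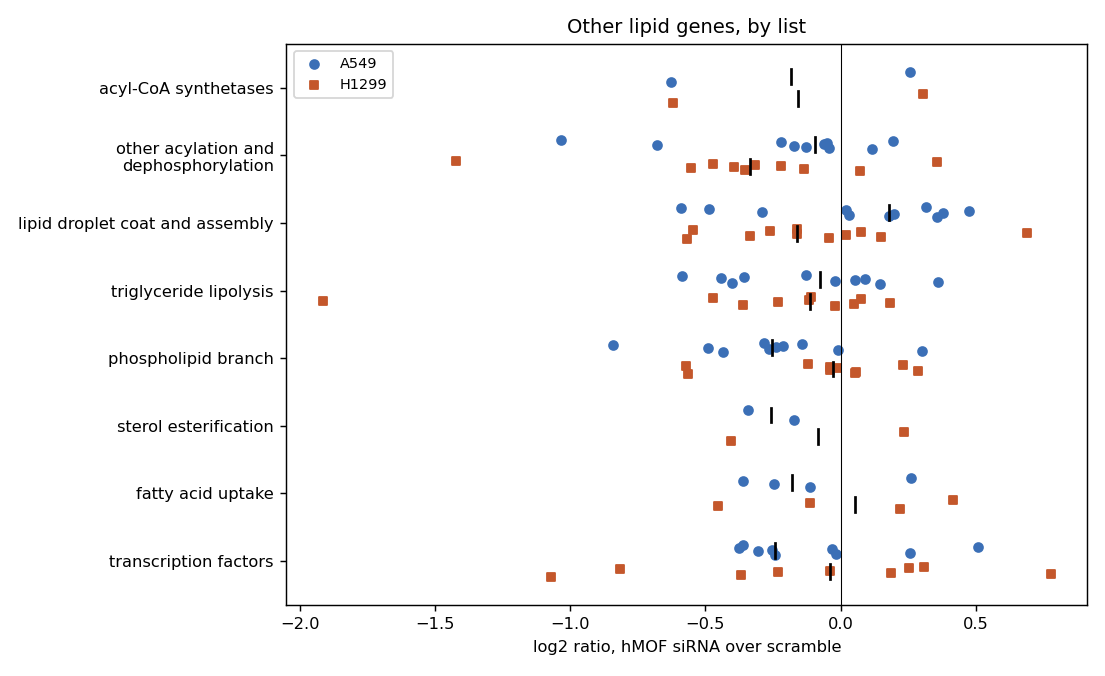
Log2 ratio of hMOF siRNA over scramble for the 58 measured genes of the 8 lists, circles for A549 and squares for H1299, with black ticks at each list's median. CNEP1R1 is the leftmost point of its list in both lines (−1.04 and −1.42), and LIPE is the leftmost H1299 point (−1.92).

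Between the lines, limma placed 12 of the 58 genes higher in H1299 (20.7%) and 24 higher in A549 (41.4%), against 25.8% and 28.1% of all genes represented. Among those higher in A549 were SLC27A2, a very long chain fatty acid transporter (log2 −4.56), and the monoglyceride lipase gene MGLL (−3.41). TMT1B (−2.65), MLXIP (−1.85), ACSL4 (−1.58), CDS2 (−1.42), ACSL1 (−1.34) and LCLAT1 (−1.23) were others. Among those higher in H1299 were GPAT2, a further mitochondrial acyltransferase of the first step (3.71), G0S2, an inhibitor of adipose triglyceride lipase (1.74), and NCEH1 (1.55). GPAT2 stood at 37.4 and 42.9 in A549 and at 851 and 896 in H1299, the reverse of GPAM. GPAT2 in A549, and SLC27A2 (59.9 and 53.1) and TMT1B (25.8 and 20.1) in H1299, lay below the signal minimum. Each was kept through the line where it was higher.

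The genes whose pattern over the 4 arrays was most like that of GPAT3 were ETS1 (root mean square difference of centred log2 values 0.38), PRKAR2B (0.42) and GPR160 (0.48). ETS1 stood at 444 and 167 in A549 and at 2084 and 722 in H1299. Those most like LDAF1 were TTLL6 (0.19), TMEM221 (0.47) and SFRP4 (0.47). SFRP4 stood at 36.1 and 33.2 in A549 and at 222 and 21.9 in H1299. It was above the signal minimum on the H1299 scramble array alone and was kept through that array, so its likeness to LDAF1 lends no support. TTLL6 stood at 145 and 91.3 in A549 and at 527 and 19.9 in H1299, again with H1299 scramble the brightest array. With 4 arrays these are nearest patterns only.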

How the data were processed

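Total RNA (6 ug per sample, per the labels) gave biotinylated cRNA for Affymetrix arrays with 54675 probe sets. The deposited intensity values are linear MAS5 signals per probe set, made by the authors per the submitters' processing notes, and neither version nor scaling target is given in the sources used. MAS5 estimates vary most at low signal. Depth does not apply to arrays, and their number limits the precision. Genes were named from the platform annotation, updated by gene identifier through RefSeq (GRCh38.p14), which changed 0 symbols and lacked 54 identifiers. Of the probe sets 41091 had 1 gene, 1801 several, 11721 none, and 62 were controls.

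Groups follow the source names. limma 3.58.1 (R 4.3.3) was fitted once to log2(signal + 29.06) of the 22830 kept probe sets, with terms for line and siRNA, 1 residual and 5.07 prior degrees of freedom, and Benjamini-Hochberg adjustment over all of them at a threshold of 0.05. It was tested on simulated data. The members and lists were chosen with earlier results of these data known. Genes named are all members, KAT8, the list genes called for siRNA, extremes of the lists, and the 3 nearest patterns. List genes without a kept probe set of their own are not analysed here. Alternatives were an offset of 0 or the 40th percentile (56.5), no filter or the 70th percentile (179), quantile normalization, median centring, no _x_at probe sets, 1 probe set or the mean per gene, no block, eBayes with trend, and leaving out a line or siRNA. Figures used matplotlib 3.10.9.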

Additional observations from a re-analysis of the deposited data

Results flagged for a closer look

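Ratios on opposite sides of 0 in the lines were found for 10 probe sets of the members, of the list genes named by rule and of the nearest patterns. List genes outside that rule were left out, and some of them also had ratios on opposite sides. Of all kept probe sets, 55.6% were below 0 in A549, 51.1% in H1299 and 36.9% in both. Opposite signs are thus common on these arrays, and nothing is read from the count. Each line had 1 array pair, and the difference between lines was not tested. LPIN1 212272_at stood at −0.16 in A549 and 0.021 in H1299, GPAT4 236743_at at 0.14 and −0.0016, and PLIN2 215895_x_at at 0.01 and −0.12. All 3 are dim probe sets of genes that brighter probe sets measure. LIPE stood at 0.09 in A549 and −1.92 in H1299, and TMEM221, whose pattern is near that of LDAF1, at 0.06 and −2.60. TMT1B stood at 0.32 and −0.16 and G0S2 at 0.06 and −0.23. In the other direction, NCEH1 stood at −0.34 and 0.24, CHKB at −0.14 and 0.23 and FABP5 at −0.11 and 0.22.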

How the results depend on the processing

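The count of member probe sets at least 2-fold lower was 1 in A549 under the main setting and the 9 alternatives tried. In H1299 it was 2, and 3 with no offset. The count higher in A549 between the lines was 6 and became 3 with no block for siRNA, and the members' median difference between lines of 0.09 became −0.070 without the scramble arrays. Of the other lipid genes, 4 called lower became 1 with 1 probe set per gene, 2 with probe sets averaged and 0 with no block for cell line (1 at an unadjusted p under 0.05 by limma). The 1 called higher became 0 with no offset, with median centring, in both fits per gene and with no block, where 4, 4, 5, 5 and 1 were at an unadjusted p under 0.05 by limma. Over all kept probe sets 1667 calls for siRNA became 458 with 1 probe set per gene, 541 with probe sets averaged and 0 with no block (651 at an unadjusted p under 0.05), and 11841 for line became 6722, 6793 and 7199. The fits per gene test 12825 genes in place of 22830 probe sets. The other causes were not tested. The labels carry no replicate numbers to pair by, and the siRNA fit compares the arrays within each line. Of the members' siRNA ratios under alternatives, 257 moved by less than the residual SD and 13 by more. Dim probe sets, among them DGAT2 in A549, limit what a ratio can show.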

Other observations

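LDAF1 was 1 of 11 kept probe sets, each of another gene, that were at least 4-fold lower with hMOF siRNA in H1299 while lying within 0.5 of 0 on the log2 scale in A549. These limits were set after the data were seen. The H1299 scramble array was the brightest of the 4 for all 11, and for 10 it was at least 2-fold above the A549 scramble array. A high H1299 scramble signal is in part what the limits select. No probe set met the same limits with the lines exchanged, and 6 were at least 4-fold higher in H1299 within the same A549 limit. In all, 27 kept probe sets were at least 4-fold lower in H1299 and 2 of these were so in both lines.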
